A study of Mus musculus with 53 samples.

Results

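Tripartite motif (TRIM) genes were examined in bone marrow-derived macrophages (BMDMs) that received IL-4. They were taken as every locus whose gene symbol is Trim followed by a number, with or without a letter, which gave 65 genes of 23847 loci. BMDMs came from WT mice and from Stat6-/- mice that lack the transcription factor STAT6 in the whole body, both on the C57BL/6 background and 8 to 12 weeks of age. Bone marrow cells were differentiated for 6 days and then kept without IL-4 or given 20 ng/ml IL-4 for 1, 3, 6 or 24 h, and a 0 h control was added in each genotype. Macrophage growth factor came from L929 cell supernatant. The 53 samples formed 18 groups, with 4 samples in each WT group, 3 in WT with IL-4 for 24 h, where replicate 1 was not analysed here, and 2 in each Stat6-/- group.

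TRIM proteins share an amino-terminal block of a RING finger, B-box zinc fingers and a coiled coil. The RING finger recruits a ubiquitin-conjugating enzyme, so most TRIM proteins are E3 ubiquitin ligases, and the carboxy-terminal domain selects what is ubiquitinated. In macrophages the family is best known for antiviral sensing and for control of innate immune signalling, and many of its genes are induced by interferon. IL-4 acts on macrophages through its receptor, which leads to phosphorylation and nuclear entry of STAT6.

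Levels were given as FPKM, in which the fragments of a locus are divided by transcript length and by the number mapped in that sample. Of the 65 genes, 35 reached 1 FPKM in at least 1 sample and were tested (53.8%, against 46.7% of all loci). The other 30 stayed below 1 FPKM throughout, and 4 of them (Trim40, Trim42, Trim52 and Trim61) were listed at 0 in every sample. Among the 35, 32 reached 1 FPKM in all 53 samples, whereas Trim34b did so in 50, Trim30b in 24 and Trim45 in 14. The highest means over all samples were 70.1 FPKM for Trim25, 60.7 for Trim30a, 37.4 for Trim28, 32.0 for Trim35 and 27.7 for Trim8. Muscle-associated members (Trim54, Trim55, Trim63 and Trim72) did not reach the limit, and neither did the interferon-inducible Trim38, which was listed at 0 in 31 samples.

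Stat6 itself lay between 14.3 and 24.0 FPKM in Stat6-/- samples and between 58.7 and 90.6 in WT samples, so the labels and the gene did not disagree. The macrophage gene Emr1 had at least 468 FPKM in every sample, and summed T cell markers stayed at or below 0.188 FPKM. Summed neutrophil markers were higher in Stat6-/- (514 to 962 FPKM) than in most WT samples (195 to 550). The 5 listed markers with a locus (S100a8, S100a9, Elane, Mpo and Camp) were above 0 throughout, and Ly6g had no locus. The medians were 190 FPKM for S100a8 and 215 for S100a9, against 5.26 for Elane, 7.65 for Mpo and 13.8 for Camp. The share of neutrophils in these cultures was not tested. The pair of Stat6-/- replicates stood apart in interferon-related genes. All 12 tested TRIM genes of the interferon-inducible list were higher in replicate 2 than in replicate 1 in each of the 9 Stat6-/- groups, with a median ratio of 1.89, compared with 1 of the 23 other TRIM genes and 15.6% of 11067 loci. These samples are bulk RNA, in which fewer cells of a type and less RNA per cell cannot be told apart.

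A cluster on chromosome 7 (mm10, 104218795 to 104507849) held 8 of the 65 genes, namely Trim6, Trim34a, Trim12a, Trim34b, Trim12c, Trim30b, Trim30a and Trim30d, and all but Trim6 were tested. The part of their promoters with a sequence in common is shown first, chosen because 6 of them were called lower at 24 h and not before. Whether that sequence has a part in the fall was not tested. RefSeq promoter windows (GRCm38.p6, 250 bases before to 50 after the start) were matched by symbol for 26 of the 35 genes. The searched core of the interferon-stimulated response element, a DNA element found in promoters of interferon-induced genes, was GAAANNGAA on either strand. It occurred in 7 of 8 windows of the tested cluster genes (87.5%), which belong to 6 of 7 genes, Trim30a having a pair of them. Among the TRIM genes elsewhere it occurred in 3 of 23 windows (13%). Of all 32851 promoters of the same length, 8.56% held it. The 120 bases before the starts of Trim30a and Trim30d matched at 114 of 115 aligned positions, so the cluster windows are not independent of each other.
Trim30a: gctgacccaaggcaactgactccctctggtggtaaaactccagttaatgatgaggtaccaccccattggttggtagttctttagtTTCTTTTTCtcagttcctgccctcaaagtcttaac
Trim30d: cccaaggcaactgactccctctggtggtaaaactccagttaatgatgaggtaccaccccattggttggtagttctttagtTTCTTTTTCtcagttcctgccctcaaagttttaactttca
These run 5′ to 3′ on the minus strand, at chr7:104465194-104465313 and chr7:104507850-104507969, and the capitals mark the core, which reads GAAAAAGAA on the opposite strand.

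The core and the 10 bases on each side of it are given for the other cluster genes that hold it, and for Trim21 and Trim25, the interferon-inducible members outside the cluster with the element nearest to the start. Each is written 5′ to 3′ on the strand of the gene, with the core in capitals. For Trim21 the capitals mark the first of 2 overlapping cores.
Trim34a: ggtttggagtTTCAGTTTCttttctctgc
Trim12a: gagttgtggtTTCTGTTTCatttccagag
Trim12c: gagttgtggtTTCTGTTTCatttccagct
Trim34b: tccttctgccTTCTCTTTCctgtgccacc
Trim21: cctctgagagGAAACTGAAagtgaaattt
Trim25: gcccctcctgTTCAGTTTCgattccttcc
In order they lie at chr7:104244458-104244486 (plus strand), chr7:104315466-104315494 (minus), chr7:104353359-104353387 (minus), chr7:104329250-104329278 (plus), chr7:102565451-102565479 (minus) and chr11:88999384-88999412 (plus). The cores of Trim34a and Trim12a begin 11 bases after the start, and those of Trim21 begin 13 and 19 bases after it. The core of Trim25 ends at the base before the start, that of Trim12c begins 28 bases before it, and that of Trim34b begins 211 bases before it. Trim26 held the core as well. Trim30b was the cluster gene whose window did not hold these letters. A STAT6 site, searched as TTC and GAA with any 4 bases between them, occurred in the windows of Trim68 and Trim39 alone among the members (2 of 31 windows, 6.45%, against 6.95% of all promoters).

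In WT BMDMs, most of the TRIM genes that were called fell with IL-4, and more of them did so with time. A gene was called when its adjusted p was below 0.05 in limma, fitted to log2(FPKM + 1) over 11146 loci with Benjamini-Hochberg adjustment. All changes are differences on that scale with their standard errors, which understate the change of genes at low FPKM. At 1 h, 5 of 35 genes fell and 0 rose, where 3.72% of all loci fell and 5.67% rose. An unadjusted p below 0.05 was found for 9 of the 35 genes and for 2203 of the 11146 loci. At 3 h, 12 fell and 1 rose, against 12.5% and 16.4% of all loci. At 6 h, 13 fell and 2 rose, against 19.2% and 22% of all loci. At 24 h, 23 of 35 fell (65.7%) and 1 rose, where 31.6% of all loci fell and 23.4% rose. The median change of the 35 genes was -0.10 at 3 h, -0.29 at 6 h and -0.38 at 24 h, and that of all loci at 24 h was -0.07. Across the times, 28 genes fell at least once, 3 rose at least once and 5 were never called. The share of all loci called at least once is not given here, so these counts cannot be set against it. With only the compared groups in the fit, 9 genes were called at 1 h and 23 at 6 h. The shares of all loci in the other fits are not given here. Leaving out either Stat6-/- replicate also raised the counts at 1 h and 6 h. In those fits 1 sample remained in each Stat6-/- group, so the spread came from WT alone.

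**Figure D1:**
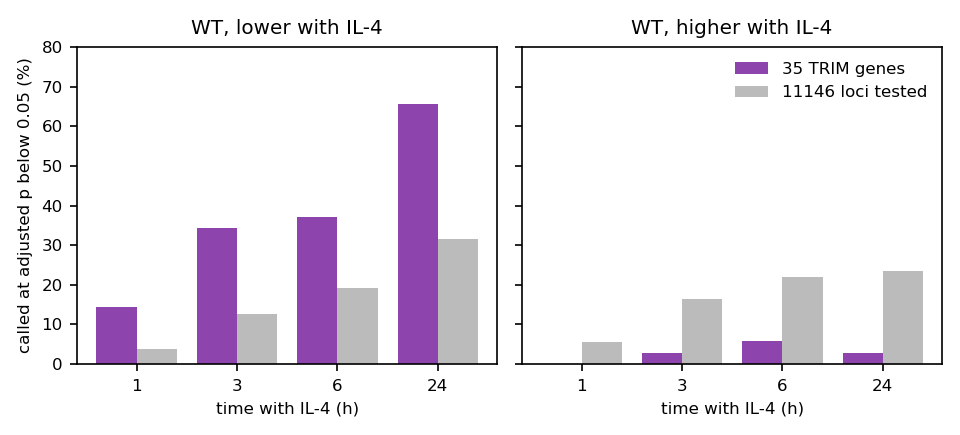
Percentage of the 35 tested TRIM genes (purple) and of all 11146 tested loci (grey) called lower (left) or higher (right) with IL-4 in WT BMDMs, against time in h. The purple bars exceed the grey ones at every time on the left, reaching 65.7% against 31.6% at 24 h, and are below them at every time on the right.

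Of the 28 genes called lower, 12 were so at 24 h and at no earlier time. Another 11 were so both earlier and at 24 h (7 of these at 3, 6 and 24 h), and 5 earlier but not at 24 h. The shares of all loci with these patterns are not given here. More genes were called at 6 h in some other fits, so some of the 12 may have fallen earlier. The change at 24 h differed from the change at 3 h for 20 genes. It was lower for 15 and higher for 5, against 21.1% and 14% of all loci, and when any one of WT replicates 2, 3 and 4 was left out the count was 5 (11 without replicate 1).

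**Figure D2:**
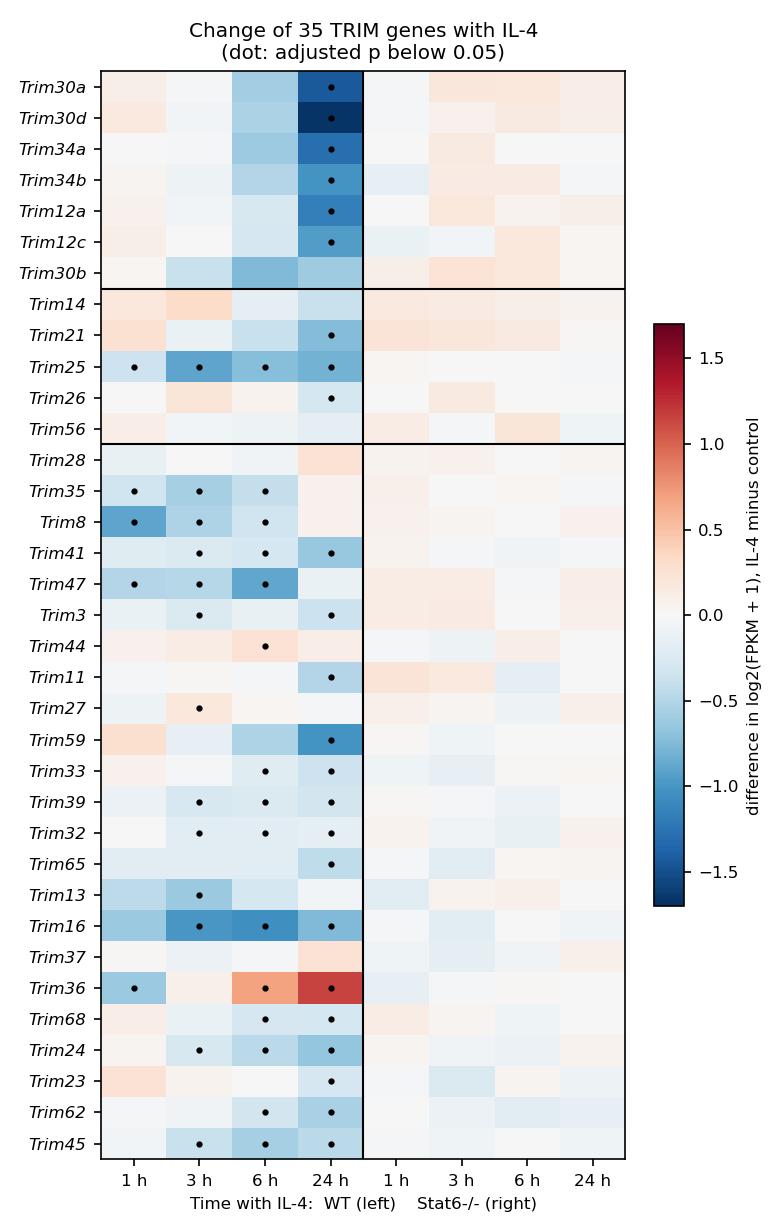
Difference in log2(FPKM + 1) between IL-4 and control for the 35 tested TRIM genes (rows) at 1, 3, 6 and 24 h in WT (left columns) and Stat6-/- (right columns), in colour from blue (lower with IL-4) to red (higher), with a dot where the adjusted p was below 0.05. Rows down to the first line are the chromosome 7 cluster and those down to the second are the other interferon-inducible members. Dark blue cells stand in the WT column at 24 h for the cluster, and no cell on the right carries a dot.

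The largest decreases at 24 h were in the chromosome 7 cluster, where 6 of 7 tested genes fell, 5 of them by at least 1 on the log2 scale. At that time 6 of all 35 TRIM genes fell by 2-fold and 1 rose by 2-fold, where 4.58% and 3.91% of all loci did. The median of the cluster was -1.17 at 24 h, after -0.54 at 6 h and -0.04 at 3 h, and none of its genes was called before 24 h. At 6 h the changes of the 7 genes ran from -0.75 to -0.28. The fit shares its spread with the Stat6-/- groups, whose replicates were far apart for these genes, so earlier falls could be missed. Trim30a, a rodent ligase that restrains NF-κB signalling, had 48.9, 49.6, 47.8 and 43.9 FPKM in the WT controls at 24 h and 19.3, 16.7 and 15.3 with IL-4. Every sample with IL-4 was thus below every control, at 35.9% of the control mean. The difference was -1.43 ± 0.36 (adjusted p = 0.00112, limma).

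Trim30d, which neighbours Trim30a, had 19.2, 20.2, 17.7 and 15.9 FPKM in the controls at 24 h and 6.10, 4.84 and 4.28 with IL-4. The mean with IL-4 was 27.8% of the control mean and no samples overlapped (-1.67 ± 0.46, adjusted p = 0.00264, limma). Of the 50-base stretches in the transcripts of Trim30a, 5.98% also occurred in Trim30d, so a part of their reads cannot be assigned to one of them. Trim30b was low, at 0.651, 0.703, 0.558 and 0.426 FPKM in the controls and 0.0547, 0.0438 and 0.0258 with IL-4. The groups did not overlap, but its change of -0.60 ± 0.44 was not called (adjusted p = 0.247, limma). All samples with IL-4 were already lower at 3 and 6 h, with means at 55.8% and 17.2% of the control. Neither change was called (adjusted p = 0.557 and 0.142, limma).

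Trim34a had 20.0, 18.5, 18.9 and 15.8 FPKM in the WT controls at 24 h and 7.80, 6.97 and 6.08 with IL-4. All samples with IL-4 were lower, at 38% of the control mean (-1.28 ± 0.29, adjusted p = 0.000317, limma). Trim34b, its near copy, had 2.18, 2.59, 2.78 and 2.04 FPKM in the controls and 0.714, 0.674 and 0.639 with IL-4. This was 28.2% of the control mean, again without overlap (-1.01 ± 0.23, adjusted p = 0.000312, limma). The pair shared 56.8% of the 50-base stretches of Trim34b and 39.8% of those of Trim34a, so the split of reads between them is uncertain.

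Trim12a and Trim12c are relatives of the retrovirus restriction factor Trim5. Trim12a had 23.2, 22.0, 21.8 and 18.8 FPKM in the WT controls at 24 h and 9.13, 9.71 and 8.12 with IL-4, with no overlap and a mean at 41.9% of the control (-1.17 ± 0.25, adjusted p = 0.000135, limma). Trim12c fell to 48.1% of its control mean (-0.95 ± 0.21, adjusted p = 0.000297, limma). Of the 50-base stretches of Trim12c, 24.2% occurred in Trim5, which had no locus of its own among those used here, and Trim12a overlaps the locus Gm15133, from which reads without strand cannot be separated. Summed over the 7 cluster genes, WT controls at 24 h held 123 ± 9.05 FPKM (SD, n = 4) and samples with IL-4 45.6 ± 4.78 (SD, n = 3). The sum was also lower in controls at 24 h (109.7 to 129) than at 0 h (170.8 to 210.2, 184 ± 17.7, SD, n = 4). The median change of the cluster between these controls was -0.51, against -0.04 over all loci. No cluster gene was called between them in the fit, whose spread includes the gap between the Stat6-/- replicates.

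**Figure D3:**
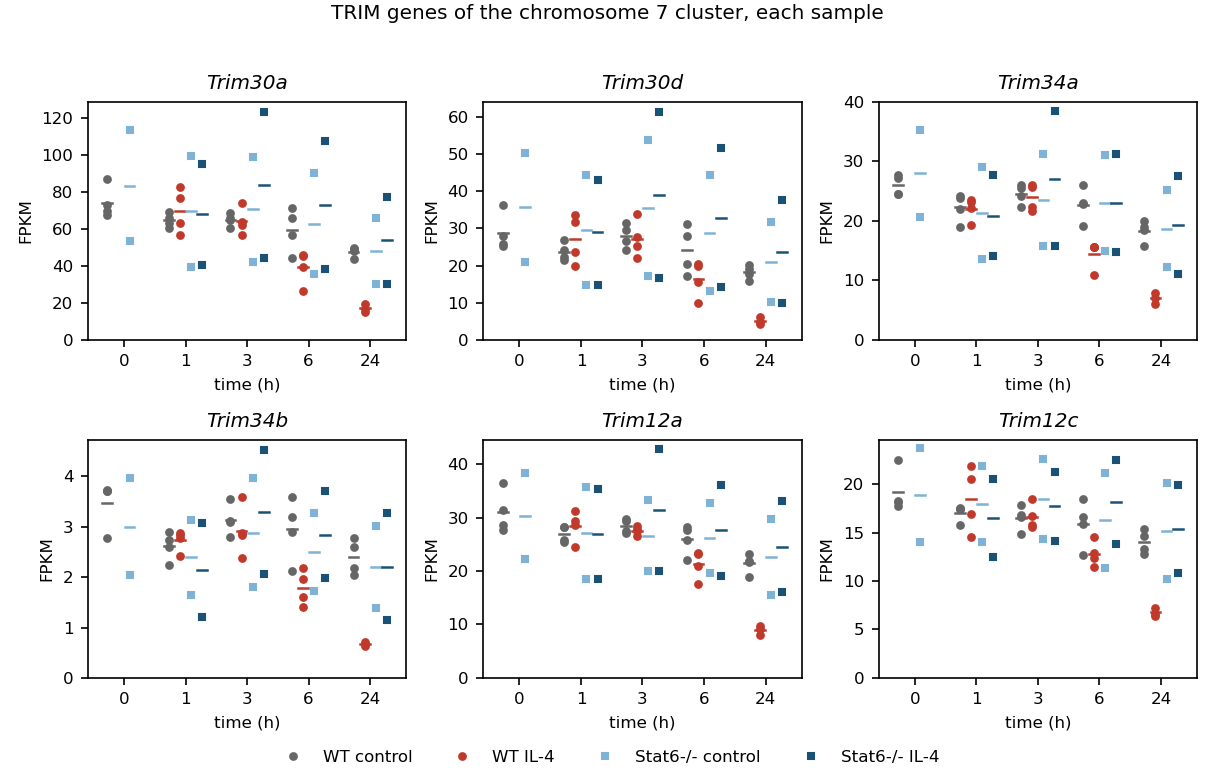
FPKM of 6 chromosome 7 cluster genes in each sample against time in h, with circles for WT and squares for Stat6-/-, grey (WT) or pale blue (Stat6-/-) for control, red (WT) or dark blue (Stat6-/-) for IL-4, and short lines at group means. At 24 h all red circles lie below all grey circles, and the 2 squares of each Stat6-/- group stand far apart at every time.

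The interferon-inducible and antiviral list held 16 genes, of which 14 had a locus and 12 were tested. Of these, 1 fell at 1, 3 and 6 h, namely Trim25, and 9 fell at 24 h, with a list median of -0.88 against -0.07 over all loci. The shares of all loci that fell were 3.72%, 12.5% and 19.2% at the early times and 31.6% at 24 h. Outside the cluster, Trim21, the cytosolic receptor for antibody-coated pathogens, had 16.8, 17.1, 15.0 and 13.9 FPKM in the WT controls at 24 h and 9.94, 8.41 and 8.72 with IL-4. Its groups did not overlap and it fell to 57.4% of the control (-0.74 ± 0.23, adjusted p = 0.00617, limma). At 1 h the order was the opposite, with 21.3 to 25.1 FPKM with IL-4 and 18.2 to 20.4 in controls, but this was not called (adjusted p = 0.563, limma). Trim26 fell to 80% of its control mean at 24 h. Trim14 and Trim56 were not called at any time.

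Trim25, the ligase that ubiquitinates the RNA sensor RIG-I and the most abundant TRIM transcript, fell at all 4 times. At 3 h its FPKM was 84.0, 84.8, 80.4 and 74.5 in WT controls and 46.2, 48.5, 39.0 and 39.1 with IL-4. At 24 h it was 87.3, 94.0, 83.7 and 79.1 in controls and 52.0, 47.3 and 47.7 with IL-4. The groups did not overlap at any time, and the mean with IL-4 was 78.5%, 53.4%, 59.8% and 57% of the control at 1, 3, 6 and 24 h. The changes were -0.35, -0.89, -0.73 and -0.80 (adjusted p = 0.0129, 1.35e-09, 9.54e-08 and 6.15e-08, limma). The changes at 24 h and at 3 h did not differ detectably (0.10 ± 0.14, adjusted p = 0.64, limma).

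Genes of the interferon and RIG-I pathway, none of them TRIM genes, were listed for comparison. All 25 were tested, with 0 called at 1 h, 3 lower at 3 h, 6 lower and 1 higher at 6 h, and 16 lower at 24 h, 12 of them by 2-fold. Of all loci, 12.5% were lower at 3 h, 19.2% at 6 h and 31.6% at 24 h. The WT and Stat6-/- responses differed for 1 of the 25 at 6 h and 6 at 24 h, where they differed for 16.5% and 27% of all loci. The median of that difference at 24 h was -1.28, against -0.07 over all loci. The Stat6-/- replicates stood apart in interferon-related genes, so large differences could go uncalled. The median WT change of the 25 genes at 24 h was -1.04. Between the WT controls at 0 h and 24 h it was -1.06, with 1 called higher and 1 lower, and that of the interferon-inducible TRIM list was -0.47 with 0 called. Ddx58, which encodes RIG-I, the substrate of Trim25, fell from a mean of 22.7 to 8.2 FPKM at 24 h (-1.38, adjusted p = 0.00268, limma). Ikbke, an interferon-inducing kinase, fell from 43.5 to 12.6 FPKM (-1.71, adjusted p = 6.02e-12, limma), whereas Mavs, the adaptor of RIG-I, was not called (23.1 and 20.5 FPKM, adjusted p = 0.161, limma).

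Trim8, Trim47 and Trim35 fell within 1 h and were back near the control level at 24 h. Trim8, a ligase that acts in cytokine and NF-κB signalling, had 30.4, 27.6, 28.2 and 26.5 FPKM in WT controls at 1 h and 15.7, 14.6, 15.8 and 12.9 with IL-4. No samples overlapped, and the mean was 52.3% of the control (-0.89 ± 0.10, adjusted p = 3.24e-09, limma). It was 68.5% at 3 h, 78.7% at 6 h and 105% at 24 h, and at the last time it was not called (adjusted p = 0.586, limma). The change at 24 h exceeded that at 3 h by 0.60 ± 0.14 (adjusted p = 0.00116, limma).

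Trim47 fell most at 6 h, when its FPKM was 19.5, 21.4, 20.7 and 23.1 in WT controls and 9.63, 11.3, 11.5 and 11.9 with IL-4. This was 52.3% of the control without overlap (-0.88 ± 0.09, adjusted p = 4.03e-10, limma). At 24 h it had 16.7 to 17.3 FPKM with IL-4 and 17.1 to 19.6 in controls (adjusted p = 0.322, limma). Trim35, which binds the pyruvate kinase isoform M2, had 38.2, 41.4, 36.8 and 31.8 FPKM in controls at 3 h and 24.2, 26.6, 24.9 and 22.9 with IL-4. It fell to 66.5% without overlap (-0.57 ± 0.07, adjusted p = 2.27e-08, limma), and at 24 h its groups overlapped (adjusted p = 0.435, limma). Trim35 overlaps the locus 1700001G11Rik, whose reads cannot be told from its own without strand. Trim13, an endoplasmic reticulum-anchored ligase, was called at 3 h, at 57.7% of its control (-0.63 ± 0.15, adjusted p = 0.000894, limma), and overlaps Dleu2.

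Trim16, which lacks a RING finger and takes part in the autophagy of damaged membranes, fell from 3 h onward. At 6 h its FPKM was 5.45, 4.85, 6.49 and 6.81 in WT controls and 2.15, 2.06, 2.36 and 2.77 with IL-4. The mean was 39.6% of the control with no overlap (-1.04 ± 0.23, adjusted p = 0.000278, limma). At 24 h it was 52.8% (-0.75 ± 0.25, adjusted p = 0.0103, limma). Trim41, Trim32, Trim39 and Trim45 were likewise lower at 3, 6 and 24 h, with 24 h changes from -0.64 for Trim41 to -0.17 for Trim32.

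**Figure D4:**
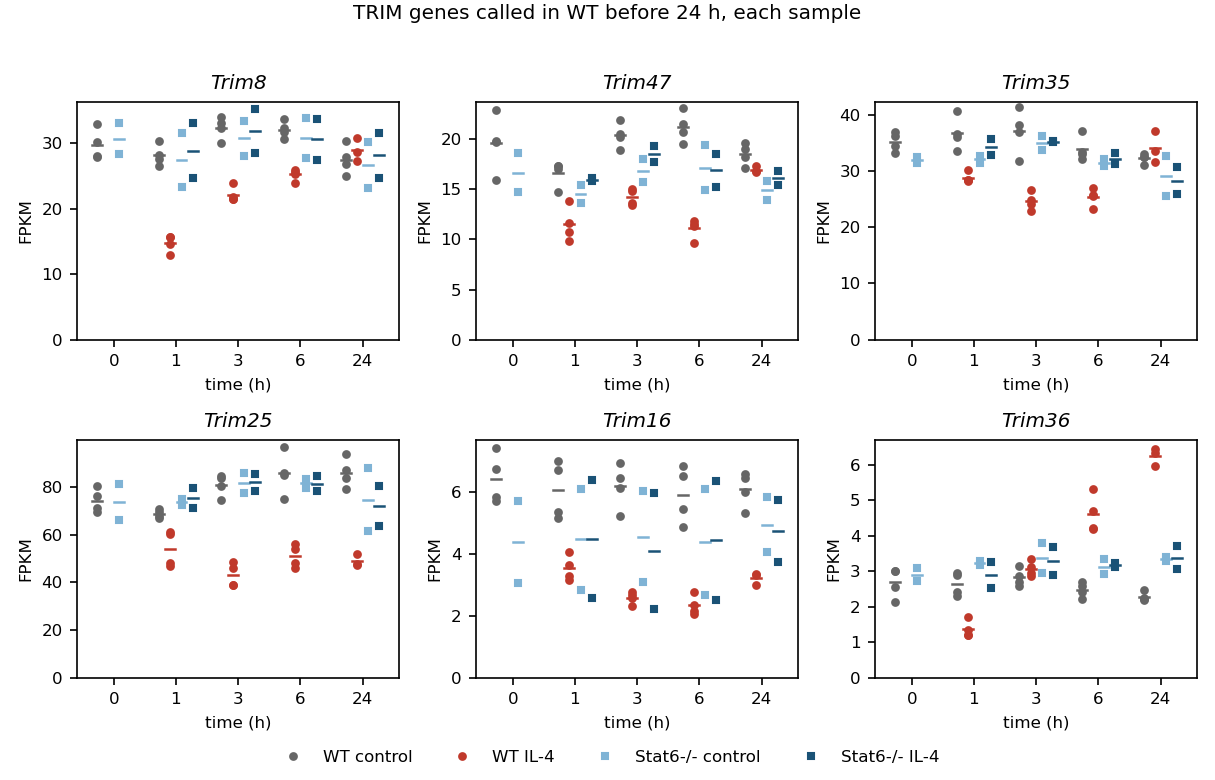
FPKM of 6 TRIM genes called in WT before 24 h, in each sample against time in h, with circles for WT and squares for Stat6-/-, grey (WT) or pale blue (Stat6-/-) for control, red (WT) or dark blue (Stat6-/-) for IL-4, and short lines at group means. Trim8, Trim47 and Trim35 are lowest with IL-4 at 1, 6 and 3 h and level with controls at 24 h, whereas Trim25 and Trim16 stay lower and Trim36 crosses from lower at 1 h to higher at 6 and 24 h.

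Trim36 was the only gene of the 35 that was called in both directions by limma with all groups in the fit, and the only one so called higher at 24 h. It encodes a microtubule-associated ligase of the COS-box class, the only one of the 4 listed members of that class to be tested. In WT at 1 h its FPKM was 2.30, 2.42, 2.96 and 2.89 in controls and 1.2, 1.34, 1.2 and 1.72 with IL-4, all lower (-0.63 ± 0.08, adjusted p = 3.20e-07, limma). At 6 h it was 2.58, 2.22, 2.41 and 2.7 in controls and 4.18, 4.71, 4.21 and 5.32 with IL-4, all higher. At 24 h it was 2.21, 2.25, 2.19 and 2.47 in controls and 6.44, 5.96 and 6.34 with IL-4. The mean with IL-4 was 51.6%, 186% and 274% of the control at these times. The rises were 0.69 ± 0.08 and 1.14 ± 0.09 (adjusted p = 1.22e-08 and 2.71e-13, limma). The 24 h change was 1.06 ± 0.12 above that at 3 h (adjusted p = 1.02e-08, limma).

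The other rises were small. Trim27, a nuclear repressor and partner of the RET fusion oncogene, was called at 3 h with 8.11 to 8.57 FPKM in WT controls and 9.08 to 10 with IL-4 (0.18 ± 0.06, adjusted p = 0.016, limma). Trim44, which has a ubiquitin-specific protease zinc finger in place of the RING finger, was called at 6 h with 12.5 to 13.8 FPKM in controls and 14.5 to 16.4 with IL-4 (0.24 ± 0.07, adjusted p = 0.00323, limma). In neither case did the groups overlap. Of the members without a RING finger, 3 of 5 were tested, namely Trim44, Trim16 and Trim14, and Trim14 was not called.

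The TIF1 class of chromatin-associated members was split. Trim24, a cofactor of nuclear receptors, had 2.9, 3.25, 2.68 and 2.38 FPKM in WT controls at 24 h and 1.59, 1.49 and 1.17 with IL-4, at 50.6% of the control without overlap (-0.65 ± 0.10, adjusted p = 8.41e-07, limma). It also fell at 3 and 6 h. Trim33, which acts in TGF-β and SMAD4 signalling, fell to 74.3% at 24 h (-0.35 ± 0.09, adjusted p = 0.000715, limma). Trim28, the corepressor of KRAB zinc finger proteins, had 35.1, 30.4, 37.8 and 35.1 FPKM in controls at 24 h and 44.6, 39.2 and 39.8 with IL-4. Its samples with IL-4 were all higher, but the difference of 0.25 ± 0.11 was not called (adjusted p = 0.0611, limma), and 4 of the 13 alternatives called it, with adjusted p from 0.0104 to 0.0368. Trim37, a ligase of centrosomes and peroxisomes, was similar at 24 h, with 2.73, 3.02, 2.61 and 2.91 FPKM in controls and 3.80, 3.53 and 3.27 with IL-4. Its samples with IL-4 were all higher, but the difference of 0.25 ± 0.14 was not called (adjusted p = 0.135, limma), and 6 of the 13 alternatives called it. Trim66 was below the limit. In the NHL-repeat class, Trim3 and Trim32 fell at 3 and 24 h, and Trim2 and Trim71 were not tested.

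Trim59, a membrane-anchored ligase, had 5.11, 7.94, 4.82 and 4.04 FPKM in WT controls at 24 h and 2.67, 1.82 and 1.98 with IL-4. The mean was 39.4% of the control without overlap (-1.01 ± 0.24, adjusted p = 0.000432, limma). The remaining 5 genes that fell at 24 h were Trim62, Trim11, Trim65, Trim68 and Trim23, with changes from -0.55 for Trim62 to -0.29 for Trim23. Trim47 and Trim65 share 50-base stretches with each other (6.58% of those of Trim47).

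In Stat6-/- BMDMs, 0 of the 35 genes were called with IL-4 at any time (limma), and the mean over the 4 times gave 0 as well, where 0.00897% of all loci, a single locus, were called. At an unadjusted p below 0.05 there were 0, 1, 0 and 0 TRIM genes at 1, 3, 6 and 24 h, the 1 being Trim23 at 3 h (-0.24 ± 0.12). Each alternative fit gave 0 adjusted calls too. Of all 11146 loci, 51, 131, 88 and 37 had an unadjusted p below 0.05 at 1, 3, 6 and 24 h. These are fewer than that threshold gives when no locus changes. The fit leaves the gap between the Stat6-/- replicates in the error, so the test was conservative. With 2 samples a group as well, changes could be missed. At 24 h, Trim30a had 30.1 and 66.0 FPKM in the Stat6-/- controls and 30.3 and 77.3 with IL-4. Trim25 had 61.6 and 87.9 FPKM in controls and 63.7 and 80.5 with IL-4, and Trim36 3.29 and 3.41 in controls and 3.05 and 3.71 with IL-4. Trim8 at 1 h had 23.3 and 31.5 FPKM in controls and 24.6 and 33.1 with IL-4. In each case the samples with and without IL-4 overlapped.

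The difference between the WT and the Stat6-/- response was tested as an interaction. It was called for 4 TRIM genes at 1 h (3.36% of all loci) and likewise for 4 at 3 h (11.2%). Later it was called for 5 at 6 h (16.5% of all loci) and for 16 at 24 h (27%). At 1 h these were Trim8 (-0.97 ± 0.17, adjusted p = 0.000135, limma), Trim47, Trim36 and Trim35. Trim25 differed at 3, 6 and 24 h, with -0.76 ± 0.17 at 24 h (adjusted p = 0.00109, limma). Of the 16 genes at 24 h, 15 had the lower change in WT and 1 the higher, the latter being Trim36 (1.14 ± 0.15, adjusted p = 2.62e-07, limma). The count at 24 h was 5 with only the compared groups in the fit, 8 with centring on sample medians and 7 with quantile normalization. It was 8 without WT replicate 2 or 4 and 6 without WT replicate 3, and the count at 1 h was 1 to 3 when any replicate was left out.

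In the chromosome 7 cluster the response differed for 4 of 7 genes at 24 h. These were Trim34a (-1.27 ± 0.48, adjusted p = 0.0437, limma), Trim12a (-1.26 ± 0.41, adjusted p = 0.0182, limma), Trim12c (-0.98 ± 0.35, adjusted p = 0.0346, limma) and Trim34b (-0.98 ± 0.38, adjusted p = 0.0495, limma). Of 12 alternative fits, 8 lost the call for Trim34a, 8 lost it for Trim34b and 5 lost it for Trim12a. For Trim30a and Trim30d the differences of -1.55 ± 0.60 and -1.77 ± 0.77 were larger but were not called (adjusted p = 0.0504 and 0.081, limma). Their replicates were far apart in Stat6-/-, with replicate 2 at a median of 2.5 times replicate 1 for Trim30a and 3.14 times for Trim30d, a gap that a fit with the replicate number as a block takes out. In that fit the differences were -1.52 ± 0.16 for Trim30a and -1.72 ± 0.20 for Trim30d (adjusted p = 1.36e-09 and 1.68e-08, limma), and all 7 cluster genes were called. The share of all loci called in that fit is not given here, so the count cannot be read as particular to the cluster. No source ties a replicate number to the same animal across groups.

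In controls, Stat6-/- and WT BMDMs differed in 9 TRIM genes over the mean of the 5 times. Of these, 7 were lower in Stat6-/- and 2 were higher, where 13.3% and 8.03% of all loci were. These controls are the same samples that enter the IL-4 comparisons. The fit counts the samples of the 5 times as independent. Replicate 2 was nevertheless above replicate 1 in all 9 Stat6-/- groups for 15.6% of loci. If same-numbered samples share a culture, the standard errors and p-values of this comparison are too small. Trim59 differed most, with 3.94 to 10.4 FPKM over the 20 WT controls (at 0 h 3.94, 7.29, 7.81 and 7.43) and 2.28 to 5.39 over the 10 Stat6-/- controls (at 0 h 3.69 and 2.63). The ranges overlapped, and the mean difference was -0.75 ± 0.12 (adjusted p = 1.13e-05, limma). Trim16 (-0.41 ± 0.13, adjusted p = 0.0164, limma) and Trim47 (-0.25 ± 0.05, adjusted p = 0.000306, limma) were also lower in Stat6-/-. For Trim16 the replicates disagreed, with 5.70 and 3.05 FPKM at 0 h, and without replicate 2 the difference was -0.03. Trim36 (0.23) and Trim41 (0.18) were higher in Stat6-/-. More TRIM genes were called without either Stat6-/- replicate. In those fits 1 sample remained in each Stat6-/- group, so the spread came from WT alone. Neutrophil marker sums were 514 to 962 FPKM in Stat6-/- controls and 269 to 550 in WT controls, and sums of mast cell or eosinophil markers were 6.00 to 8.54 against 1.60 to 6.65. Their part in these differences was not tested.

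**Figure D5:**
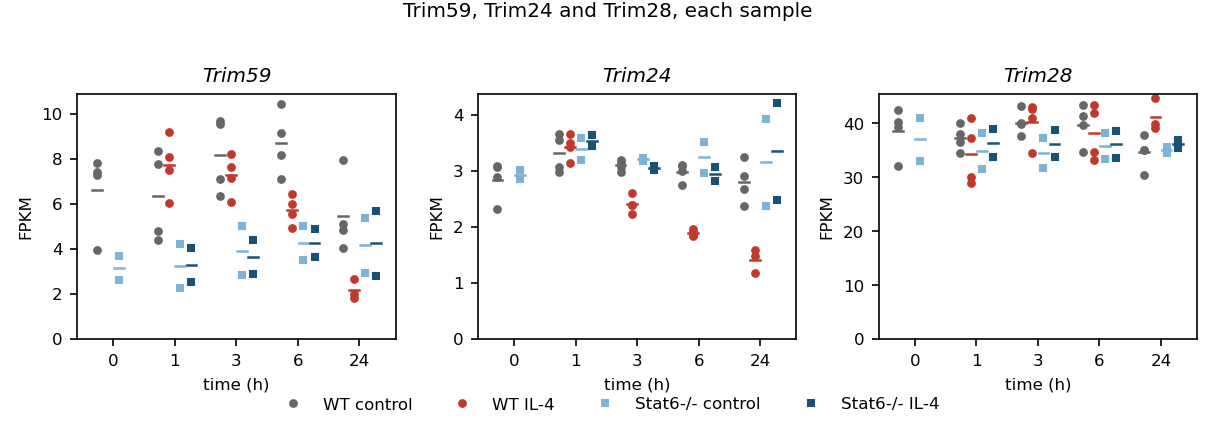
FPKM of Trim59, Trim24 and Trim28 in each sample against time in h, with circles for WT and squares for Stat6-/-, grey (WT) or pale blue (Stat6-/-) for control, red (WT) or dark blue (Stat6-/-) for IL-4, and short lines at group means. Trim59 controls lie mostly higher in WT than in Stat6-/-, Trim24 with IL-4 lies below WT controls from 3 h, and Trim28 groups lie close together.

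Between 0 h and 24 h, 2 TRIM genes fell in the WT controls and 0 rose, against 11.6% and 5.67% of all loci. They were Trim37, with 3.68, 4.18, 3.82 and 4.79 FPKM at 0 h and 2.73, 3.02, 2.61 and 2.91 at 24 h (-0.42 ± 0.13, adjusted p = 0.0227, limma), and Trim68 (-0.22 ± 0.08, adjusted p = 0.0439, limma). The count was 0 without WT replicate 1, 3 or 4, 1 without WT replicate 2 and 10 with only these groups in the fit. It also rose without either Stat6-/- replicate, where 1 sample remained in each Stat6-/- group.

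Genes that are not named Trim but belong to the same system were listed too. Among TRIM proteins with other names, 3 of 4 were tested. Mefv, which encodes the inflammasome sensor pyrin, rose at 1 h from a mean of 14.0 to 23.2 FPKM (0.69, adjusted p = 7.40e-05, limma) and fell at 24 h from 22.5 to 5.32 FPKM (-1.90, adjusted p = 1.24e-14, limma). Pml, the scaffold of nuclear bodies, fell at 24 h from 14.5 to 9.39 FPKM (-0.58, adjusted p = 0.0373, limma). Of the ubiquitin-conjugating enzymes that serve RING ligases, 7 of 8 were tested, and 4 were higher and 0 lower at 24 h, where 23.4% of all loci were higher and 31.6% lower. The response differed from that of Stat6-/- for 2 of the 7 (27% of all loci). The 4 that were higher in WT at 24 h included Ube2n and Ube2v1, partners in lysine-63-linked chains. Their changes were 0.40 and 0.22 (adjusted p = 1.60e-06 and 0.0158, limma).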

How the data were processed

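Polyadenylated RNA from 1 µg of total RNA was sequenced from 53 BMDM samples, which were grouped by their labels. The authors mapped reads to mm10 with TopHat2 2.0.7 and computed FPKM with Cufflinks 2.0.2, versions taken from the submitters' processing notes, and deposited one FPKM table per sample. The annotation is not given in the sources used here. FPKM is relative within a sample. Depth is unknown, but steps between low values gave relative depths of 0.705 to 1.55. Tables were joined by locus. The 11146 loci that reached 1 FPKM in any sample were fitted as log2(FPKM + 1) with limma 3.58.1 (R 4.3.3), with 18 group means, 35 residual degrees of freedom, a mean-variance trend and Benjamini-Hochberg adjustment in each comparison at 0.05. The steps were tested on simulated data. Alternatives were the study's own test (analysis of variance, Tukey's method), a pseudocount of 0.1, another low-value filter, quantile normalization, median centring, only the compared groups, a replicate block and each replicate left out.

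Genes described singly were those 2-fold changed in WT, the 3 largest called changes in each direction per time with no overlap, the 5 highest means, up to 3 each for genotype and time, and 6 chosen for their roles (Trim21, Trim24, Trim25, Trim28, Trim30a and Trim33); the remaining names illustrate groups or were chosen after their values were seen. Members and lists were chosen with earlier results of these data known. The paper describes the WT data as coming from 4 individual animals. Whether a replicate number marks the same animal in each group, and whether the Stat6-/- samples came from separate animals, is not given in the sources used here. Promoters were from RefSeq, GRCm38.p6. The result of one promoter motif search is not reported here.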

Additional observations from a re-analysis of the deposited data

Results flagged for a closer look

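In 9 of 168 sets of 4 WT samples checked, 1 sample stood apart from the other 3 by Dixon's test, where chance at 1 in 20 gives 8.4. The FPKM was 23.9 for Trim8 at 3 h with IL-4 in replicate 1 (others 21.5 to 21.8), 30.1 for Trim35 at 1 h with IL-4 in replicate 2 (28.1 to 28.4), and 11.0 for Trim34a at 6 h with IL-4 in replicate 4 (15.6 to 15.7). For Trim33 it was 6.04 at 3 h with IL-4 and 6.83 in the 24 h control, both in replicate 2. In other controls it was 2.77 for Trim34b at 0 h in replicate 3 (3.70 to 3.73), 14.7 for Trim47 at 1 h in replicate 2 (17.0 to 17.4), 3.94 for Trim59 at 0 h in replicate 1 (7.29 to 7.81) and 2.47 for Trim68 at 3 h in replicate 1 (3.02 to 3.08).

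In limma, 20 interactions of genotype with IL-4 were called, for 11 of the 21 genes described singly. Most of these genes were chosen for their WT change, which is a part of the interaction, so a high share is built in. Over all loci the interaction was called for 3.36%, 11.2%, 16.5% and 27% at 1, 3, 6 and 24 h. Differences are WT minus Stat6-/- in log2(FPKM + 1). For Trim8 they were -0.97 at 1 h and -0.57 at 3 h (adjusted p = 0.000135 and 0.0189). For Trim25 they were -0.90, -0.73 and -0.76 at 3, 6 and 24 h (adjusted p = 0.000167, 0.00182 and 0.00109). For Trim35 they were -0.43, -0.57 and -0.43 at 1, 3 and 6 h (adjusted p = 0.0368, 0.000708 and 0.00936). For Trim47 they were -0.63, -0.62 and -0.86 at the same times (adjusted p = 0.0152, 0.00635 and 0.000104). For Trim36 they were -0.49, 0.67 and 1.14 at 1, 6 and 24 h (adjusted p = 0.0496, 0.000847 and 2.62e-07). At 24 h they were -1.26 for Trim12a, -1.27 for Trim34a, -0.98 for Trim34b, -1.02 for Trim59, -0.71 for Trim24 and -0.39 for Trim33 (adjusted p = 0.0182, 0.0437, 0.0495, 0.0469, 0.00104 and 0.0377). Of 12 alternative fits, 9 lost the call at 24 h for Trim59, and 8 lost it for each of Trim33, Trim34a and Trim34b. At 1 h, 8 lost it for Trim35 and 6 for Trim36. The calls for Trim25 were kept in each fit.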

How the results depend on the processing

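The counts of called TRIM genes in WT at 3 h and 24 h stayed within 1.5 times under each alternative, and the Stat6-/- counts stayed at 0. At 1 h in WT (5 genes), quantile normalization gave 8, only the compared groups 9, and leaving out a replicate 4 to 10. At 6 h (15 genes) these last 2 gave 23, and 12 to 26. The interaction at 1 h (4 genes) fell to 1 with only the compared groups and to 1 to 3 without a replicate. At 24 h (16 genes) it was 7 with quantile normalization, 8 with median centring, 5 with only the compared groups and 6 to 16 without a replicate. The genotype difference in controls (9 genes) also moved without a replicate. Between 0 h and 24 h controls (2 genes), quantile normalization and median centring gave 1 each, only the compared groups 10, and leaving out a replicate 0 to 13. The difference between 24 h and 3 h (20 genes) was 13 with quantile normalization and 5 to 24 without a replicate. Only Trim37 reversed, in the genotype difference, which was 0.0044 without Stat6-/- replicate 2 and -0.40 without replicate 1. Of 992 recomputed values for 80 results of single genes, 816 kept direction and side of the threshold, 165 lost the call and 10 gained it. Where a Stat6-/- replicate was left out, 1 sample remained in each Stat6-/- group. The spread then came from WT alone, without the gap between the Stat6-/- replicates. The cause of these shifts was not tested. Shares of all loci under the alternatives are not given here, so a shift may be general to all loci. FPKM carries no depth, so precision at low levels is unknown.

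Same-numbered samples deviated together with r above 0.1 in 13 of 15 WT pairs (0.0265 to 0.561) and 8 of 8 Stat6-/- pairs (0.791 to 0.900). Of the samples, 24 of 30 in WT and 16 of 16 in Stat6-/- correlated best with their own number. With 2 samples a group, the deviations mirror each other, so the Stat6-/- pairs of one time are not separate outcomes. No source ties a number to the same animal across groups. With the replicate block, 10 genes were called at 1 h and 25 at 6 h in WT. For the interaction 10 were called at 3 h, 17 at 6 h and 24 at 24 h, and 15 between the controls. Whether calls over all loci rose as much with the block is not given here.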
